A study of Rattus norvegicus with 82 samples.

Results

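In all, 7 genes of the natriuretic peptide system were followed through cardiomyocytes of both ventricles of the rat: the ligand genes Nppa and Nppb, the protease genes Corin and Furin, and the receptor genes Npr1, Npr2 and Npr3. They were chosen by symbol, and all 7 were among the 17337 genes of the table and among the 11954 with enough counts to be tested. Each of 41 animals gave 1 library from the right ventricle (RV) and 1 from the left (LV), 82 libraries in 12 groups. All animals were F1 offspring of Wistar Kyoto females and Lewis males, and none carried a transgene. Pulmonary artery banding (PAB) loads the RV and aortic banding (AOB) the LV, with clips that were loose when placed and constricted the vessel as the animal grew, and sham-operated animals were the controls of both. The letter H stands for the compensated, hypertrophic stage and F for the decompensated, failing stage. By the labels the H groups were 11 weeks old after 7 weeks of treatment, PAB-F was 28 weeks old after 22 weeks, and Sham-F and AOB-F were 31 weeks old after 26 weeks, so PAB-F animals were younger than their shams. The ages in the study's methods differ from those of the labels, so these ages are approximate. A ventricle was represented by 7 animals for Sham-H, 9 for Sham-F, 6 for either stage of PAB, 6 for AOB-H and 7 for AOB-F. Males and females were in every group, but sex was not balanced. Males were 3 of 7 in Sham-H, 4 of 9 in Sham-F, 4 of 6 in either stage of PAB, 2 of 6 in AOB-H and 4 of 7 in AOB-F.

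Atrial natriuretic peptide (ANP, from Nppa) and B-type natriuretic peptide (BNP, from Nppb) are hormones that the heart releases under stretch, and they promote salt and water excretion and lower vascular tone. Corin, a transmembrane serine protease, cleaves the ANP precursor, and the proprotein convertase furin cleaves the BNP precursor. Both peptides act through the receptor encoded by Npr1, a guanylyl cyclase that makes cGMP. Npr2 encodes the related cyclase for C-type natriuretic peptide, and Npr3 encodes a clearance receptor that takes the peptides up. In the adult ventricle Nppa is low and both ligand genes are widely used as markers of load.

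Counts on genes summed to 6675287 to 19665439 per library. The lowest count of any ligand gene was 111 reads, for Nppa in an RV Sham-F library. Levels are given as CPM, counts scaled to the effective library size. Summed ventricular cardiomyocyte markers ranged from 47050 to 132500 CPM. Of the atrial markers, Bmp10 stayed at or below 1.86 CPM, Sln at or below 16.8 CPM and Myl7 at or below 41.0 CPM. Summed with the other listed atrial markers, Myl4, Kcnj3 and Stard10, they ranged from 50.25 to 220.4 CPM. Principal component 1 of all tested genes held 47% of the variance and set most LV libraries of the F groups apart, with 5 LV libraries lying more than 40 from the median of their own group. Because cells were isolated in bulk, a change in the share of a cell type and a change in RNA per cell cannot be told apart.

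Nppa and Nppb lie next to each other on chromosome 5, with 0 annotated genes between them. The stretches before their starts are shown because the transcripts rose together upon PAB. They were read from RefSeq, build GRCr8, plus strand, and end where the outermost gene model begins, at chr5:163711934-163712183 (250 bases) for Nppa and chr5:163699758-163699954 (197 bases) for Nppb.
Nppa: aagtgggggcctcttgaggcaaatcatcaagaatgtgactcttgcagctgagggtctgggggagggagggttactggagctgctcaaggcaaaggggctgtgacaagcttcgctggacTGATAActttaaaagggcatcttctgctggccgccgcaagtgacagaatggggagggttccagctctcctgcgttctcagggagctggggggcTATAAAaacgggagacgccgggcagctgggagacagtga
Nppb: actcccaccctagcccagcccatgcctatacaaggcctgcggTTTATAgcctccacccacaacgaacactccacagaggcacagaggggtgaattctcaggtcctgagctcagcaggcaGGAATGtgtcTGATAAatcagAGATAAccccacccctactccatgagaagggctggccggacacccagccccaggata
Capitals mark matches, on either strand, to TGATAA or AGATAA (elements bound by GATA factors), CATTCC (the M-CAT element bound by TEAD factors) and TATAAA (the TATA box), which do not overlap here. The letters searched were chosen after the sequences were seen. TGATAA occurred once in each stretch, and 7.97% of all 33469 windows of 250 bases and 6.62% of those of 197 bases held it. CATTCC and AGATAA were matched before Nppb, where 9.58% and 8.44% of windows held them, and not before Nppa. TATAAA was matched in both, against 12.9% and 9.86% of windows. The match before Nppa is on the plus strand, 39 bases before the gene start. That before Nppb is on the minus strand, 155 bases before the start, so it is in the reverse orientation and is not placed like the first. Searches for TNAAGTG (Nkx2-5), GGTGTGA (T-box factors) and TGANTCA (AP-1) gave 0 matches in both stretches. A match is a description of letters and does not show binding.

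**Figure D1:**
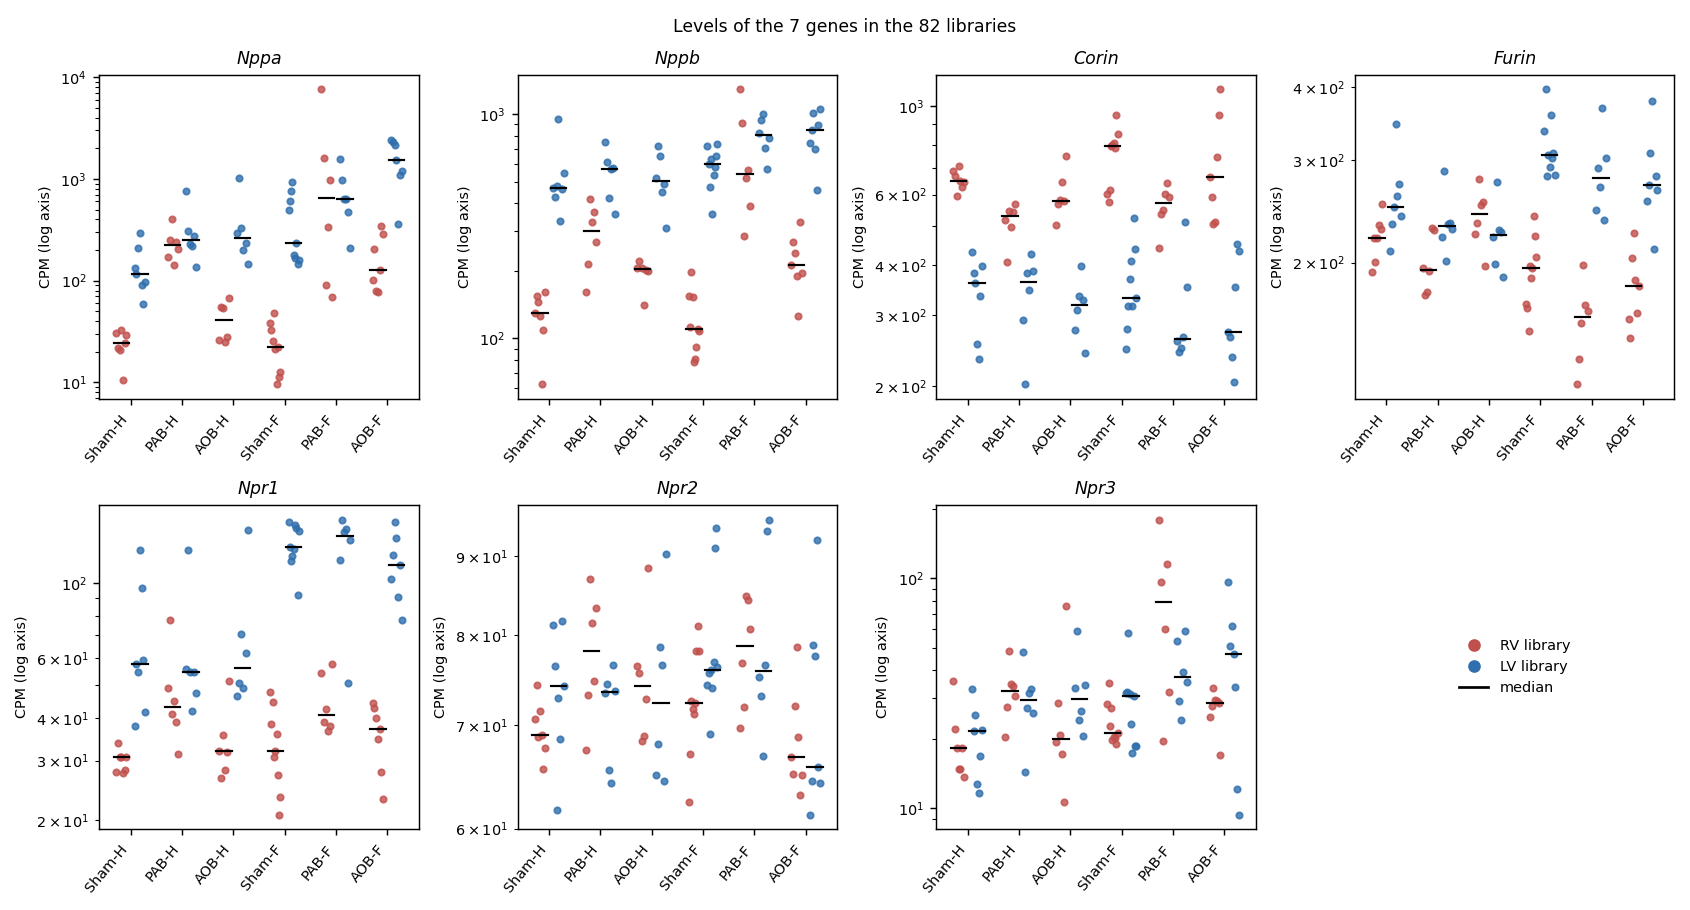
Each point is 1 library, plotted as CPM on a log axis for each of the 7 genes, by condition, with RV in red and LV in blue and the median as a black bar. Nppa in RV PAB-F spanned 68.5 to 7597 CPM, whereas Npr2 stayed between 61.3 and 95.0 CPM in all 82 libraries.

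The first question was how banding changed the ligand genes in the loaded RV. Nppa ranged from 10.6 to 32.9 CPM with a median of 24.2 in RV Sham-H, and from 141.0 to 406.7 CPM with a median of 221.9 in RV PAB-H. All 6 banded animals lay above all 7 shams, where 3.24% of all tested genes did not overlap. The log2 fold change was 3.28 (SE 0.60, adjusted p = 0.000846, edgeR quasi-likelihood test with Benjamini-Hochberg adjustment, as for every adjusted p below). Nppb ranged from 62.4 to 161.4 CPM with a median of 130.2 in RV Sham-H and from 161.4 to 418.0 CPM with a median of 301.1 in RV PAB-H, and 5 of 6 banded animals exceeded every sham. Its log2 fold change was 1.21 (SE 0.24, adjusted p = 0.00238). These were the 2 of 7 genes called at an adjusted p under 0.05, where 4.5% of all tested genes were called.

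Both ligand genes rose at the failing stage as well, and the animals differed widely. Nppa was at 9.56 to 48.5 CPM with a median of 22.1 in RV Sham-F. In the 6 RV PAB-F animals it stood at 7597, 1621, 967.2, 339.8, 91.7 and 68.5 CPM. Even the lowest banded animal lay above the highest sham, but the range among banded animals was 110.9-fold. The log2 fold change was 6.17 (SE 0.60, adjusted p = 3.7e-12) and was 4.64 (adjusted p = 9.22e-10) without replicate 1, the library with 7597 CPM. Nppb was at 78.4 to 197.0 CPM in RV Sham-F, with a median of 110.5. In RV PAB-F it stood at 1292, 910.8, 564.8, 520.9, 391.2 and 287.8 CPM, again without overlap, where 2.71% of all tested genes did not overlap. Its log2 fold change was 2.45 (SE 0.23, adjusted p = 6.26e-13). Npr3 was the third and last gene called here, where 11.1% of all tested genes were called.

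Markers of other cells moved in the same libraries. In RV PAB-H 7 of 7 tested fibroblast markers rose, and their summed level ranged from 374 to 2578 CPM against 244.5 to 466.8 in RV Sham-H. In RV PAB-F 3 of 7 rose, with sums of 264 to 1659 CPM against 160.7 to 499.7 in RV Sham-F. RV PAB-F replicate 1, with the highest Nppa, also had the highest fibroblast sum (1659 CPM) and macrophage sum (133.8 CPM), and the lowest atrial marker sum (66.8 CPM) of its group. Replicate 3, with 749.1 CPM of fibroblast markers, had 91.7 CPM of Nppa. In RV PAB-H the library with the highest fibroblast sum, 2578 CPM, had 251.6 CPM of Nppa, and the one with the highest Nppa (406.7 CPM) had a fibroblast sum of 513.9 CPM. Of the 5 tested atrial markers Myl4 rose at both stages and Kcnj3 fell at the failing stage. The part of other cells in the ligand levels was not tested.

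In the RV of animals with aortic banding, the ventricle that was not directly loaded, Nppa also rose at the failing stage. It was at 77.3 to 345.6 CPM with a median of 126.5 in RV AOB-F. All 7 animals lay above all 9 shams, where 0.0837% of all tested genes did not overlap. The log2 fold change was 2.82 (SE 0.53, adjusted p = 0.00246), where 0.0669% of all tested genes (8 genes) were called. Nppb was at 126.2 to 330.4 CPM and above every sham in 4 of 7 animals, with a log2 fold change of 0.89 (SE 0.22, adjusted p = 0.111). It passed the test with DESeq2 (adjusted p = 0.0488). At the compensated stage 0 of 11954 genes were called in RV AOB-H by edgeR, and 171 had an unadjusted p under 0.05. Nppa was at 24.8 to 67.8 CPM there.

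**Figure D2:**
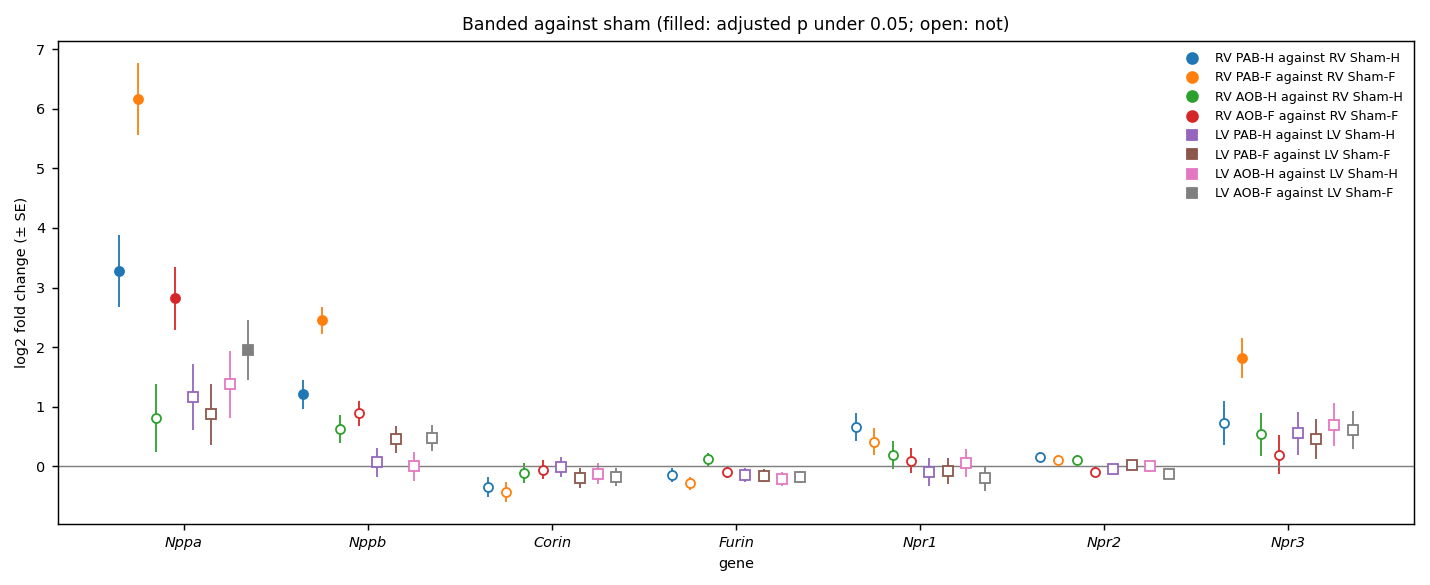
Points are log2 fold changes of each banded group against its own shams (same stage, same ventricle), with bars of 1 SE, circles for the RV and squares for the LV, and filled symbols for an adjusted p under 0.05. The highest filled points are Nppa in RV PAB-F (6.17) and RV PAB-H (3.28), and only Nppa, Nppb and Npr3 have filled points.

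In the LV the ligand genes started from a higher level. Nppa was at 144.5 to 937.8 CPM with a median of 233.9 in LV Sham-F and at 363.3 to 2435 CPM with a median of 1546 in LV AOB-F. Of the 7 banded animals 6 lay above all shams. The log2 fold change was 1.95 (SE 0.51, adjusted p = 0.00661), where 12.9% of all tested genes were called. In a fit to these 2 groups alone Nppa did not pass the test (1.94, adjusted p = 0.0672) and 15 genes were called in place of 1541. Macrophage marker sums were 34.4 to 171.7 CPM in LV AOB-F against 29.2 to 105.5 CPM in LV Sham-F, with 3 of 6 markers called higher, and fibroblast sums 602.9 to 1351 against 378.5 to 1207 CPM, with 0 of 7 called. Their part in the level of Nppa was not tested. Nppb was at 459.9 to 1050 CPM against 360.4 to 735.2 in LV Sham-F, with a log2 fold change of 0.48 (SE 0.22, adjusted p = 0.128). In LV AOB-H 0.0167% of genes (2 genes) and none of the 7 were called, with a log2 fold change of Nppa of 1.38 (SE 0.56, adjusted p = 0.167).

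Pulmonary banding left 0 genes called in the LV by edgeR at either stage, with 305 genes in LV PAB-H and 454 in LV PAB-F at an unadjusted p under 0.05. Nppa was at 135.0 to 754.3 CPM in LV PAB-H and at 209.1 to 1576 CPM in LV PAB-F, and the groups overlapped with their shams. The log2 fold changes were 1.16 (SE 0.56, adjusted p = 0.991) and 0.87 (SE 0.52, adjusted p = 1).

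Whether the ventricles responded differently was tested as a difference of log2 fold changes. The response of Nppa to PAB-F was larger in the RV than in the LV by 5.30 (SE 0.80, adjusted p = 5.02e-05), and that of Nppb by 2.0 (SE 0.32, adjusted p = 0.000189), where 0.351% of all tested genes (42 genes) were called. With each animal as a block the differences were 3.70 (adjusted p = 0.000677) and 1.89 (adjusted p = 0.000421), with 2.92% of genes called (349 genes). Without RV PAB-F replicate 1 they were 3.77 and 1.69 (adjusted p = 0.00335 for both). At the compensated stage the same differences were 2.12 (SE 0.80, adjusted p = 0.422) and 1.14 (SE 0.34, adjusted p = 0.398), with 0 genes called by edgeR, 1104 at an unadjusted p under 0.05 and 0.0418% (5 genes) called with the animal as a block. For AOB-F, LV minus RV gave -0.87 for Nppa (SE 0.72, adjusted p = 0.679), so a larger response in the loaded LV was not detected. Failure minus hypertrophy in the RV upon PAB was 2.89 for Nppa (SE 0.78, adjusted p = 1) and 1.24 for Nppb (SE 0.33, adjusted p = 1), with 0 genes called by edgeR and 177 at an unadjusted p under 0.05. Without RV PAB-F replicate 1 these were 1.36 and 0.94 (adjusted p = 1 for both).

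The ligand genes separated the ventricles of sham animals. Both were lower in the RV. For Nppa the log2 difference of RV minus LV was -2.56 in Sham-H (SE 0.57, adjusted p = 0.00123) and -4.05 in Sham-F (SE 0.54, adjusted p = 3.47e-10). For Nppb it was -2.05 (SE 0.24, adjusted p = 3.77e-09) and -2.28 (SE 0.21, adjusted p = 6.79e-15). In Sham-H 4 of 7 genes were called, where 21% of all tested genes were (32.5% with the animal as a block), and in Sham-F 5 of 7, where 74.3% were. With most genes called in Sham-F, a call there says little about a single gene. Over all conditions Nppa was higher in the LV of 36 of 41 animals and Nppb in 40 of 41. The 5 animals with more Nppa in the RV were 3 of 6 PAB-F and 2 of 6 PAB-H animals. In PAB-F the fitted RV minus LV difference of Nppa was 1.25 (SE 0.58, adjusted p = 0.0564). It was -0.28 without RV PAB-F replicate 1. With the animal as a block and all libraries kept it was -0.19 (adjusted p = 0.745, with 66.3% of genes called). Its direction thus depended on that library and on whether the pairing was modelled. Without RV PAB-F replicate 1 Nppb was lower in the RV (-0.59, adjusted p = 0.0357). In PAB-F 4 of 7 genes were called, where 61.1% of all tested genes were.

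In PAB-H 0 of the 7 genes passed the test between the ventricles, where 0.125% of all tested genes did. With the animal as a block 1.51% were called, among them Nppb (-0.92, adjusted p = 0.0256) and Corin (0.63, adjusted p = 0.00154). In AOB-H 4 of 7 genes were called, where 7.98% of all tested genes were, and in AOB-F 5 of 7, where 67.1% were. Nppa was lower in the RV in both, with log2 differences of -3.12 (adjusted p = 0.000486) and -3.18 (adjusted p = 2.13e-06).

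**Figure D3:**
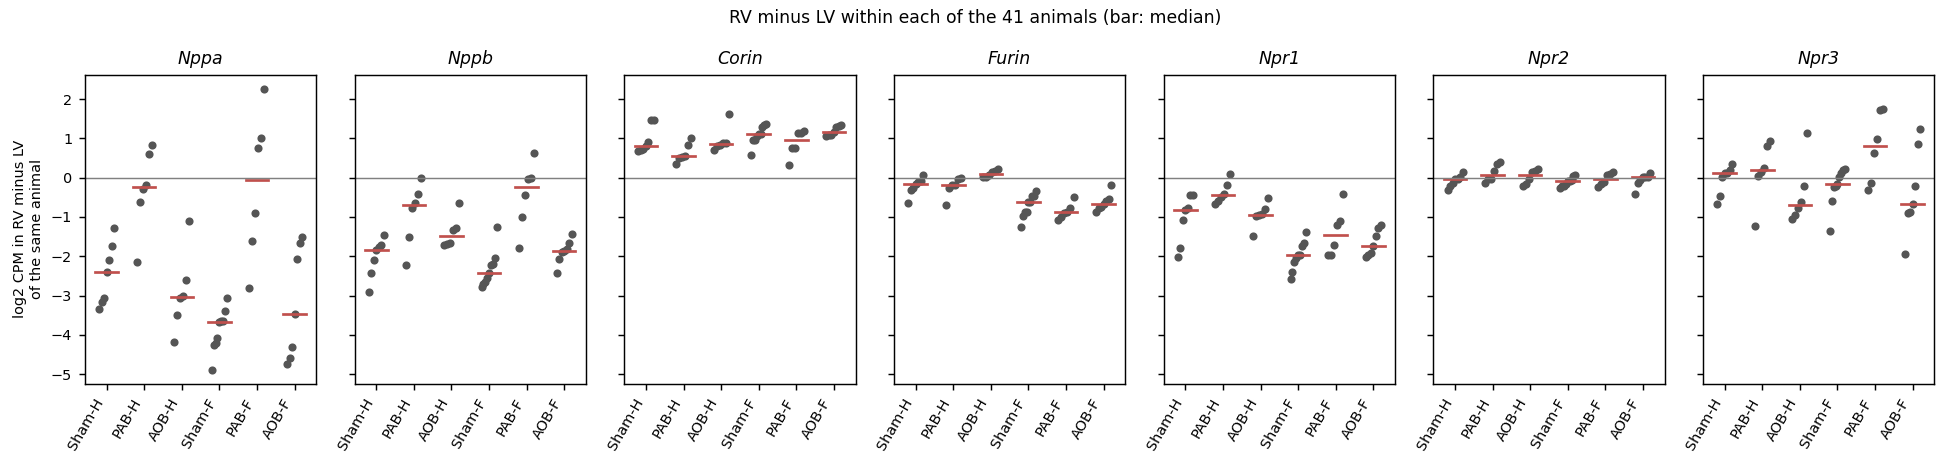
Each point is the log2 CPM of a gene in the RV minus that in the LV of the same animal, by condition, with the median as a red bar. Corin lies above 0 in 41 of 41 animals, whereas Nppa lies below 0 in all animals but 5, which carried PAB.

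Corin, the ANP-converting enzyme, had the opposite pattern between the ventricles. It was at 596.1 to 705.8 CPM in RV Sham-H and 233.1 to 431.8 CPM in LV Sham-H, without overlap, as were 4.59% of all tested genes. It was higher in the RV by 0.93 on the log2 scale in Sham-H (SE 0.17, adjusted p = 7.95e-05) and by 0.84 to 1.19 in AOB-H and in each F group, all of them called. Of all tested genes 21% were called in Sham-H, 7.98% in AOB-H, 74.3% in Sham-F, 61.1% in PAB-F and 67.1% in AOB-F. A call in an F group thus says little about a single gene. By the study's criteria, which include a log2 change above 1, Corin was not called in Sham-H, AOB-H or PAB-F. Upon PAB the level in the RV was lower than in shams in all 6 PAB-H animals, at 406.4 to 569.2 CPM, where 3.24% of all tested genes did not overlap. The log2 fold change of -0.35 (SE 0.17, adjusted p = 0.235) did not pass the test, nor did that of -0.43 in PAB-F (SE 0.17, adjusted p = 0.0776). Both passed in fits to 2 groups (adjusted p = 0.0125 and 0.0161). Across the libraries Corin and Npr1 were correlated at r = -0.827 and Corin and Nppb at -0.746, as a description over 82 libraries that share animals and ventricles.

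Furin, the protease gene for the BNP precursor, was not called against sham in any banded group by edgeR. It was at 152.7 to 240.0 CPM in RV Sham-F and 123.7 to 197.9 CPM in RV PAB-F, a log2 fold change of -0.28 (SE 0.11, adjusted p = 0.0728) that passed with DESeq2 (adjusted p = 0.0425). In the LV it was at 281.6 to 396.2 CPM in Sham-F, above every RV library of that group, where 41.8% of all tested genes did not overlap. Furin was lower in the RV in Sham-F (-0.72, SE 0.10, adjusted p = 5.95e-10), PAB-F (-0.85, adjusted p = 5.34e-08) and AOB-F (-0.63, adjusted p = 8e-07). In these comparisons 74.3%, 61.1% and 67.1% of all tested genes were called. It did not pass in Sham-H, PAB-H or AOB-H, where 21%, 0.125% and 7.98% were called. In AOB-H it was higher in the RV in 6 of 6 animals, by only 0.0172 to 0.234 on the log2 scale. With the animal as a block this difference did not pass (0.11, adjusted p = 0.552), where 13.7% of all tested genes were called. A contrast of the stages cannot be read from these calls.

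Npr1, the receptor cyclase for both peptides, was an LV-high transcript. In RV Sham-H it stood at 27.7 to 33.7 CPM and in LV Sham-H at 37.8 to 124.9 CPM. In Sham-F it was at 20.8 to 47.8 and 92.3 to 151.0 CPM, with no overlap at either stage. Between these groups 4.59% of all tested genes did not overlap in Sham-H and 41.8% in Sham-F. The separation in Sham-F thus says little about a single gene. The RV minus LV difference was -1.18 in Sham-H (SE 0.23, adjusted p = 0.000217) and -1.96 in Sham-F (SE 0.20, adjusted p = 1.98e-13). In AOB-H the difference of -1.03 (adjusted p = 0.00273) was -0.70 (adjusted p = 0.094) without LV AOB-H replicate 6, a library with 143.0 CPM of Npr1 and an endothelial marker sum of 3858 CPM. Upon PAB-H Npr1 was at 31.3 to 77.9 CPM in the RV, above every sham in 5 of 6 animals, with a log2 fold change of 0.66 (SE 0.23, adjusted p = 0.0799). Without the 5 libraries apart on component 1, none of them in this comparison, it was 0.64 (adjusted p = 0.00675), and in the fit to 2 groups 0.66 (adjusted p = 0.0189).

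Npr1 was set beside principal component 1, to which it contributes. The 3 LV libraries of the H groups above 30 on it had a median of 125 CPM (96.7 to 125), the other 16 a median of 54.7 CPM (37.8 to 143) and the 22 LV libraries of the F groups a median of 127 CPM (50.7 to 153), so the ranges overlapped. LV PAB-F replicate 5, at 2.75 on the component, was the one with 50.7 CPM. Endothelial marker sums were 1455 to 3184 CPM in LV Sham-F and 630.2 to 981.6 CPM in RV Sham-F, and 5 of 7 such markers were lower in the RV there, with 1 higher, where 74.3% of all tested genes were called. Their part in the level of Npr1 was not tested.

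**Figure D4:**
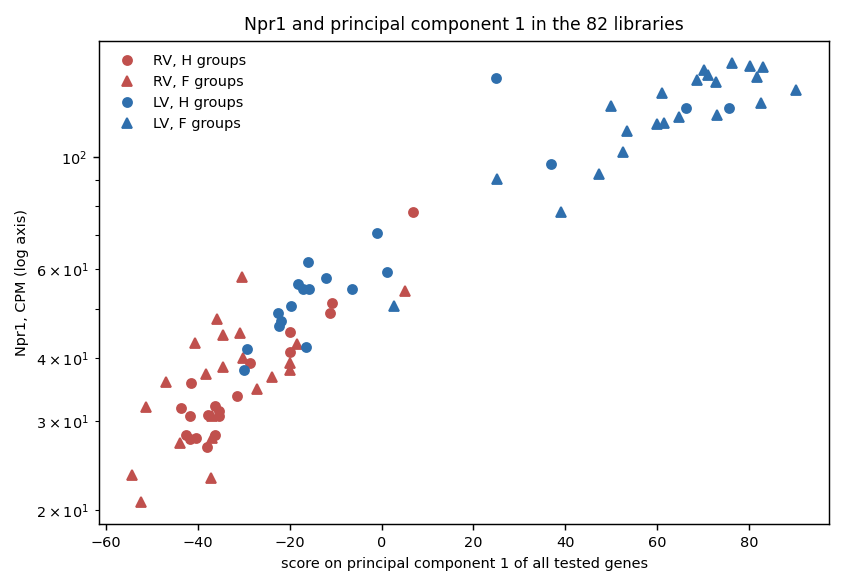
Each point is 1 library, with its score on principal component 1 of all tested genes on the x axis and Npr1 in CPM on a log y axis, circles for the H groups and triangles for the F groups, RV in red and LV in blue. RV libraries lie at 6.9 or less on the component and at 77.9 CPM or less, and most LV libraries of the F groups lie to the upper right.

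The sham groups of both stages, which differ in age and in time since surgery, were compared with each other. In the RV 0 of the 7 genes differed between Sham-F and Sham-H, where 0.0502% of all tested genes were called. In the LV Nppa was higher in Sham-F by 1.52 (SE 0.52, adjusted p = 0.0106), Npr1 by 0.94 (SE 0.21, adjusted p = 0.000162) and Furin by 0.30 (SE 0.10, adjusted p = 0.0114), where 57.4% of all tested genes were called. Furin did not pass in the fit to 2 groups (adjusted p = 0.0677).

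Npr2 showed the least variation. Its group means spanned 0.189 on the log2 scale. No gap between neighbours in the order of the 12 groups exceeded 1 pooled SD, but this also held for Npr3, whose means spanned 1.75. Npr2 was not called in any comparison by edgeR, and with DESeq2 it was lower in LV males (-0.15, adjusted p = 0.0428). Its ligand gene Nppc was at or near the limit of counting, at no more than 0.931 CPM in any library.

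Npr3, the clearance receptor, rose with RV PAB-F. It was at 19.1 to 35.2 CPM with a median of 21.3 in RV Sham-F, and in RV PAB-F it stood at 180.1, 116.0, 96.8, 60.4, 31.96 and 19.6 CPM. Of the 6 animals 4 lay above all shams and 2 overlapped with them. The log2 fold change was 1.82 (SE 0.34, adjusted p = 0.000105) and 1.45 (adjusted p = 0.00608) without replicate 1. The 4 animals with the highest Npr3 were also the 4 with the highest Nppa, and the 2 with the lowest Npr3 those with the lowest Nppa. The difference between the RV and LV responses was 1.36 (SE 0.48, adjusted p = 0.213), so a difference between ventricles was not shown. In RV PAB-H the log2 fold change of 0.73 (adjusted p = 0.238) did not pass in the fit to all groups, but passed in the fit to 2 groups (0.73, adjusted p = 0.041), and a difference between stages was not shown (1.095, adjusted p = 1). RV PAB-F exceeded LV PAB-F by 1.07 (SE 0.37, adjusted p = 0.0102), where 61.1% of all tested genes were called. Without replicate 1 it did so by 0.70 (adjusted p = 0.0968). The markers of other cells described above moved in these RV libraries too, and their part in the level of Npr3 was not tested.

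On the per-length scale of FPKM (fragments per kilobase of gene, scaled to library size), the level of Nppa relative to Nppb was described without a test. The median ratio was 0.139 in RV Sham-H and 0.67 in RV PAB-H. At the failing stage it was 0.185 in RV Sham-F (0.0798 to 0.244) and 0.912 in RV PAB-F, where it spanned 0.135 to 4.54. In the LV it was 0.383 in Sham-F and 1.63 in AOB-F. The ventricles not directly loaded had medians of 0.588 in RV AOB-F and 0.665 in LV PAB-F. Nppa exceeded Nppb in 0 of 9 RV Sham-F and 3 of 6 RV PAB-F animals, and in 2 of 9 LV Sham-F and 4 of 7 LV AOB-F animals.

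The 2 ligand genes also varied together among animals of the same group. Deviations of log2 CPM from the group means correlated in the RV with Pearson r = 0.707 (p = 6e-05, adjusted p = 0.00012) and Spearman rho = 0.639 (p = 0.00019, adjusted p = 0.00038), and in the LV with r = 0.542 (p = 0.00048, adjusted p = 0.00048) and rho = 0.475 (p = 0.00289, adjusted p = 0.00289). These are permutation tests of the animals within groups, two-sided, with 41 animals per ventricle and 2 relations adjusted together. Without the 2 animals farthest from the median of Nppa, r was 0.636 and 0.438. Within single groups r ranged from 0.425 to 0.954 in the RV and from 0.0814 to 0.885 in the LV.

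**Figure D5:**
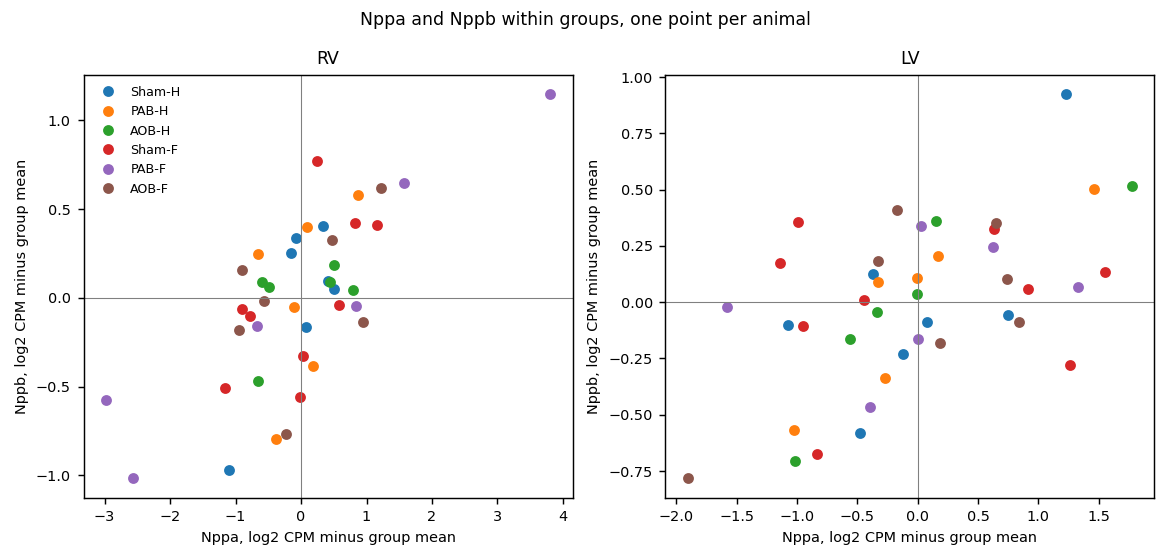
Each point is 1 animal, with the deviation of Nppa from its group mean on the x axis and that of Nppb on the y axis, both as log2 CPM, coloured by condition, for the RV (left) and the LV (right). Points rise from lower left to upper right in both panels, with r = 0.707 and 0.542.

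Across all 82 libraries the genes most like Nppa were Ankrd23 (r = 0.944), a stretch-responsive ankyrin repeat gene, Fuca1 (0.911), Hyal1 (0.896), Ecm1 (0.888) and Tgm2 (0.87). Among those most like Nppb were Tln1 (0.884), Penk (0.868), Sema3b (0.862) and Nat6 (0.854). These values describe libraries that share ventricle, animal and group.

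Some of the 7 genes differed between the sexes. In the LV Nppa was higher in males by 1.26 (SE 0.22, adjusted p = 0.000208), with a higher median in males in 6 of 6 groups. In LV Sham-F the 4 males were at 494.6 to 937.8 CPM and the 5 females at 144.5 to 233.9 CPM, without overlap. In LV AOB-F the 4 males were at 1546 to 2435 CPM and the 3 females at 363.3 to 1207 CPM. The share of all genes without overlap between the sexes was not counted. Npr3 was higher in LV males by 0.67 (SE 0.18, adjusted p = 0.0129) and Corin was lower (-0.35, SE 0.10, adjusted p = 0.0218), which makes 3 of 7 genes where 9.9% of all tested genes were called. In the RV Corin was lower in males (-0.31, SE 0.06, adjusted p = 0.00136), 1 of 7 where 8.38% were called, and the difference of Nppa was 0.31 (SE 0.37, adjusted p = 0.637). The sex difference of RV minus LV, a comparison added after the values were seen, was -0.98 for Nppa (SE 0.32, adjusted p = 0.0646), so a dependence of the sex difference on the ventricle was not shown. None of the 7 passed that test, where 4.42% of all tested genes did.

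Other genes of the pathway were counted over 4 lists with 52 entries, of which 50 were in the table and 43 were tested. Of 16 tested genes of cGMP synthesis, effectors and breakdown, 3 rose in RV PAB-H: Gucy1b3, a subunit of soluble guanylyl cyclase (0.91, adjusted p = 0.018), the phosphodiesterase gene Pde1a (1.26, adjusted p = 0.018) and Rgs4, a regulator of G protein signalling (0.92, adjusted p = 0.031), where 3.91% of all tested genes rose. The median of the 16 was 0.547 against 0.00434 over all genes. In RV PAB-F Pde2a, a cGMP-stimulated phosphodiesterase, was the 1 of 16 called (0.42, adjusted p = 0.013), where 11.1% of all tested genes were. Rgs2 was the 1 of 16 called in LV AOB-F (0.95, adjusted p = 0.0075), where 12.9% were. Both counts are below the share over all genes.

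Among 16 tested transcriptional regulators known for the ligand promoters, 1 rose in RV PAB-H (Tbx3, 0.79, adjusted p = 0.017), where 3.91% of all tested genes rose, and 4 fell in RV PAB-F, where 3.42% fell. The 4 were Mef2a (-0.74, adjusted p = 0.00054), Hey2 (-0.57, adjusted p = 0.026), Tbx5 (-0.53, adjusted p = 0.015) and Gata6 (-0.42, adjusted p = 0.016), and the median of the 16 was -0.235 against 0.0162 over all genes. Klf15 fell in LV AOB-F (-0.60, adjusted p = 0.0059), where 12.9% of all tested genes were called. Of 9 tested genes of peptide processing and breakdown none was called in the RV upon PAB. In LV AOB-F, where 12.9% of all tested genes were called, Pcsk1, a proprotein convertase gene, rose (3.77, adjusted p = 0.0081). Its relative Pcsk6 fell there (-0.39, adjusted p = 0.033). Pcsk1 was itself lower in LV Sham-F than in LV Sham-H (-3.80, adjusted p = 0.000929), so its rise is against a low sham group. Pam, which amidates peptides, rose in RV PAB-F (0.45, adjusted p = 0.046), where 11.1% of all tested genes were called.

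Between the ventricles of Sham-H, Tbx3 (-1.36, adjusted p = 1.2e-06), Nfatc4 (-1.09, adjusted p = 0.012), Pde9a (-0.91, adjusted p = 0.0084) and Pde2a (-0.55, adjusted p = 0.001) were lower in the RV. Rgs2 (1.2, adjusted p = 0.00088), Mef2a (0.74, adjusted p = 0.00048), Prkg1, the cGMP-dependent kinase gene (0.56, adjusted p = 0.0084), and Pde3a (0.36, adjusted p = 0.027) were higher. The counts were 3 higher and 2 lower of 16 cGMP genes and 1 higher and 2 lower of 16 regulators, where 21% of all tested genes were called. In Sham-F, where most tested genes were called, they were 4 higher and 6 lower of 16 cGMP genes, 7 higher and 6 lower of 16 regulators and 3 higher and 3 lower of 9 processing genes. Rgs2 (2.77, adjusted p = 1.4e-15) and Tbx3 (-1.86, adjusted p = 3.6e-15) kept their directions there.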

How the data were processed

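Cardiomyocytes were isolated by collagenase perfusion, filtration and centrifugation from the RV and LV of 41 rats. The deposited raw counts per gene were made by the authors from rRNA-depleted, paired-end libraries trimmed with Trim Galore, aligned with STAR to the rat genome (Rnor6.0) and counted with featureCounts without overlapping assignments. The deposited normalized counts (a signal value made by the authors with DESeq2 1.28.1 size factors) entered no test, and the FPKM values deposited by the authors were used only for the ratio of Nppa to Nppb. No protein data were used here.

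Raw counts were fitted with edgeR 4.0.16 in R 4.3.3 (quasi-likelihood, TMM factors, filterByExpr, 1 mean per group over 82 libraries, sex in a fit per ventricle). A call is an adjusted p under 0.05. DESeq2 1.42.0, other factors, no filter, sex, blocks, 2-group fits, the study's criteria and leaving out each library were alternatives. Log2 CPM had a prior count of 2, and correlations used 100000 permutations. The named genes are the 7, the 5 most like each ligand gene (1 of them is not reported here), and pathway genes called in a directly loaded ventricle or between sham ventricles (for Sham-F counts and examples). Members and lists were chosen with earlier results of these data known.

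By the labels RV and LV libraries of a number come from 1 animal, and their deviations from group means correlated (median r per condition 0.186 to 0.297, other animals -0.0686 to -0.0142). Animals are separate, so p-values within a ventricle reflect spread between animals. That spread is an estimate shared by all 12 groups, not that of the 2 groups compared. For Nppa the SD of log2 CPM was 2.592 in RV PAB-F and 0.8073 in RV Sham-F. Where a group is more spread than the rest, the printed SE and adjusted p can be too small. Fits to 2 groups use only the libraries of those groups. Nppa in RV PAB-F against sham was called under all 23 alternatives. The main fit treats the RV and LV libraries of an animal as independent. Its p-values between ventricles, and for differences of their responses, therefore ignore the pairing, which the fit with the animal as a block includes. The fit was tested on simulated data. Low counts limit precision by counting error only.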

Additional observations from a re-analysis of the deposited data

Results flagged for a closer look

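A library far from the others of its group was looked for in 84 sets of values, 7 genes in 12 groups, on the log2 scale by Dixon's criterion. It was met 8 times, where about 1 in 20 sets would meet it by chance. RV Sham-H replicate 5 was the lowest of 7 for both ligand genes, with Nppa at 10.6 CPM against 20.7 in the next library and Nppb at 62.4 against 108.9 CPM. LV AOB-F replicate 5, a female, was the lowest of 7 for Nppa, at 363.3 against 1085 CPM. RV AOB-H replicate 4 was the lowest of 6 for Nppb, at 140.5 against 199.9 CPM. Npr1 stood apart in 3 LV libraries, all of them apart on principal component 1 as well: at 143.0 CPM in LV AOB-H replicate 6 (next 70.6), at 125.0 CPM in LV PAB-H replicate 2 (next 55.9) and at 50.7 CPM in LV PAB-F replicate 5 (next 116.8). Npr3 in RV AOB-F replicate 7 was the lowest of 7, at 16.99 against 25.01 CPM. RV PAB-F replicate 1 did not meet the criterion for any of the 7 genes.

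The responses to PAB-F differed between the ventricles for Nppa, by 5.30 on the log2 scale, and for Nppb, by 2.0, both past the test of the difference itself.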

How the results depend on the processing

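The 7 genes were called or not called as in the report under most alternatives. Of the values called in the report or in the alternative, 0 changed direction. The RV minus LV difference of Nppa in PAB-F, called in neither, changed sign without RV PAB-F replicate 1 (-0.28) and with the animal as a block (-0.19). Among fits other than those without a library, 1169 of 1197 values stayed on their side of the threshold, 11 lost the call and 17 gained it. Without each library in turn it was 2776 of 2793, with 2 lost and 15 gained. The number of the 7 called moved to 2 in RV PAB-H against LV PAB-H with the animal as a block. In fits to 2 groups it moved to 5 in RV PAB-H and to 0 in LV AOB-F, each against sham. By the study's criteria it moved to 2 in RV PAB-F against LV PAB-F and to 1 in LV Sham-F against LV Sham-H. With DESeq2 it moved to 5 in RV PAB-F and to 2 in RV AOB-F, each against sham, and to 2 in males against females in the RV. Without the 5 LV libraries apart on component 1, chosen after seeing the data, it moved to 6 in RV PAB-F against sham. The causes were not tested. Without each library in turn the number called ranged from 5 to 6 in RV AOB-F against LV AOB-F, 1 to 2 in RV AOB-F against sham, 3 to 4 in RV AOB-H against LV AOB-H, 4 to 5 in RV PAB-F against LV PAB-F, 3 to 4 in RV PAB-F against sham and 2 to 3 in RV PAB-H against sham. Counts over all genes moved by over 1.5 times in several settings. In RV PAB-H against sham, 538 became 1642 in the fit to 2 groups, 346 with no filter, 326 with sex, 217 by the study's criteria and 1193 without the 5 libraries. In RV PAB-F, 1325 became 2726, 227 and 2354 in the fit to 2 groups, by the study's criteria and without the 5, and in LV AOB-F 1541 became 15, 145 and 2668. Between the ventricles, 2510 in Sham-H became 3887 with the animal as a block, 1499 in the fit to 2 groups, 338 by the study's criteria and 489 without the 5, and 954 in AOB-H became 1643, 475 and 401 in the first 3 of these settings and fell by over 1.5 times without the 5. In PAB-H 15 became 181 with the block and 40 with DESeq2. The 42 genes whose response to PAB-F differed between ventricles became 21 with RLE factors, 16 with no filter, 349 with the block, 65 with DESeq2 and 26 without the 5. The study's criteria gave 3306, 2030 and 2613 in place of 8876, 7308 and 8021 between the ventricles in Sham-F, PAB-F and AOB-F, and 962 in place of 6860 between the LV sham groups. DESeq2 called 35 genes in place of 2 in LV AOB-H, and 110 in place of 0 differed in their response to AOB-F without the 5. The replicate number follows sex, as males are numbered before females in every condition. Libraries of equal number in different conditions had a median r of 0.0588 in the RV and 0.0837 in the LV. For unequal numbers it was -0.0148 and -0.0171. A block on the number moved the count of the 7 in no comparison.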
